A study of Mus musculus with 6 samples.

Results

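Primary granule genes encode the enzymes that granulocyte and monocyte progenitors store in their first granules, together with the proteins that activate, package, guard or accompany those enzymes. The 10 genes described here are Mpo, Elane, Prtn3, Ctsg, Ms4a3, Nkg7, Srgn, Serpinb1a, Ctsc and Cst7, 10 of 19938 genes measured on the arrays. They were chosen by symbol with results of the HLX comparison already known, since Ms4a3, Ctsg, Nkg7 and Serpinb1a stood among its larger differences. The differences between vectors are therefore given for these genes as a description, without a test.

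Marrow of young adult wild-type FVB/nJ mice supplied the KSL fraction (Kit and Sca-1 present, lineage markers absent), which holds stem cells and multipotent progenitors. One group received a lentivirus carrying mouse HLX, a homeobox transcription factor, with IRES-GFP (3 arrays), and the other the pCAD-IRES-GFP control virus (3 arrays). Both groups were exposed to virus in IMDM with FBS, mIL-3, mIL-6, mSCF and 8 µg/ml polybrene, and sorting for GFP followed 2 days later. The cells were thus cultured in cytokines that favour myeloid growth, and the controls share that exposure. RNA came from 5000 to 10000 cells, and a 3 ng portion went through NuGEN Ovation Pico WTA amplification. No source used here names the promoter that drives the insert. The labels do not say whether numbered replicates are separate mice or cultures, so SDs and p-values reflect only how these arrays vary, which may be technical.

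Granules of the primary, or azurophil, type form at the promyelocyte stage. Their serine proteases are made as inactive precursors, are activated by the dipeptidase cathepsin C, and are held in the granule by the proteoglycan serglycin. Transcription of several of these genes is known to depend on PU.1, C/EBP, MYB and RUNX factors. Multipotent progenitors are known to carry low levels of some of these transcripts before lineage commitment.

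All 6 arrays had close distributions, with median log2 levels of 6.32 to 6.40 and pairwise correlations over genes of 0.98 to 0.987. Hlx had log2 levels of 10.75, 9.74 and 10.28 on the HLX arrays, against 6.99, 7.29 and 7.62 on the control arrays, in the order of replicates 1, 2 and 3. All 3 HLX arrays were above all 3 control arrays. Of the sorted-fraction markers, Kit was at 9.31 to 9.59 with HLX and 9.20 to 9.53 with control, and Cd34 at 10.72 to 11.36 and 11.15 to 11.26. Flt3, a cytokine receptor of multipotent progenitors, was lower on every HLX array, at 8.81, 8.57 and 8.19, against 9.12, 9.21 and 9.29 with control (-0.68 ± 0.16, adjusted p from limma 0.901). Itgam, the lineage gate gene for CD11b, was higher on every HLX array, at 7.24, 6.91 and 6.72, against 6.49, 5.72 and 5.99 with control (0.89 ± 0.22, adjusted p from limma 0.901). The part of these marker differences in the granule gene values was not tested. Ly6a, the Sca-1 gene, had no probeset with a single symbol and was not analysed here. Over all 10 measured gate and lineage markers the summed signal, as log2, was 12.01 to 12.28 with HLX and 12.19 to 12.27 with control. Cd34 is the brightest gene in this sum, and dimmer lineage genes such as Itgam hardly move it.

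Across the 10 granule genes, 8 were lower with HLX and 2 were higher, and the median log2 difference was -0.74, where the median of all 19938 genes was -0.0078 and 52.5% of genes were below 0. Without HLX array 3 the members' median was -0.47. The differences ran from -1.76 for Ms4a3 to 0.19 for Ctsc. All 3 HLX arrays lay below all 3 control arrays for Ctsg, Ms4a3, Nkg7, Srgn and Serpinb1a, which is 5 of 10, and for 4.85% of all genes. In no member did all HLX arrays lie above all control arrays, which 4.34% of all genes did. These shares describe a list chosen from this contrast and nothing is read from them. In bulk RNA, fewer cells that carry a transcript and less transcript per cell cannot be told apart.

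**Figure D1:**
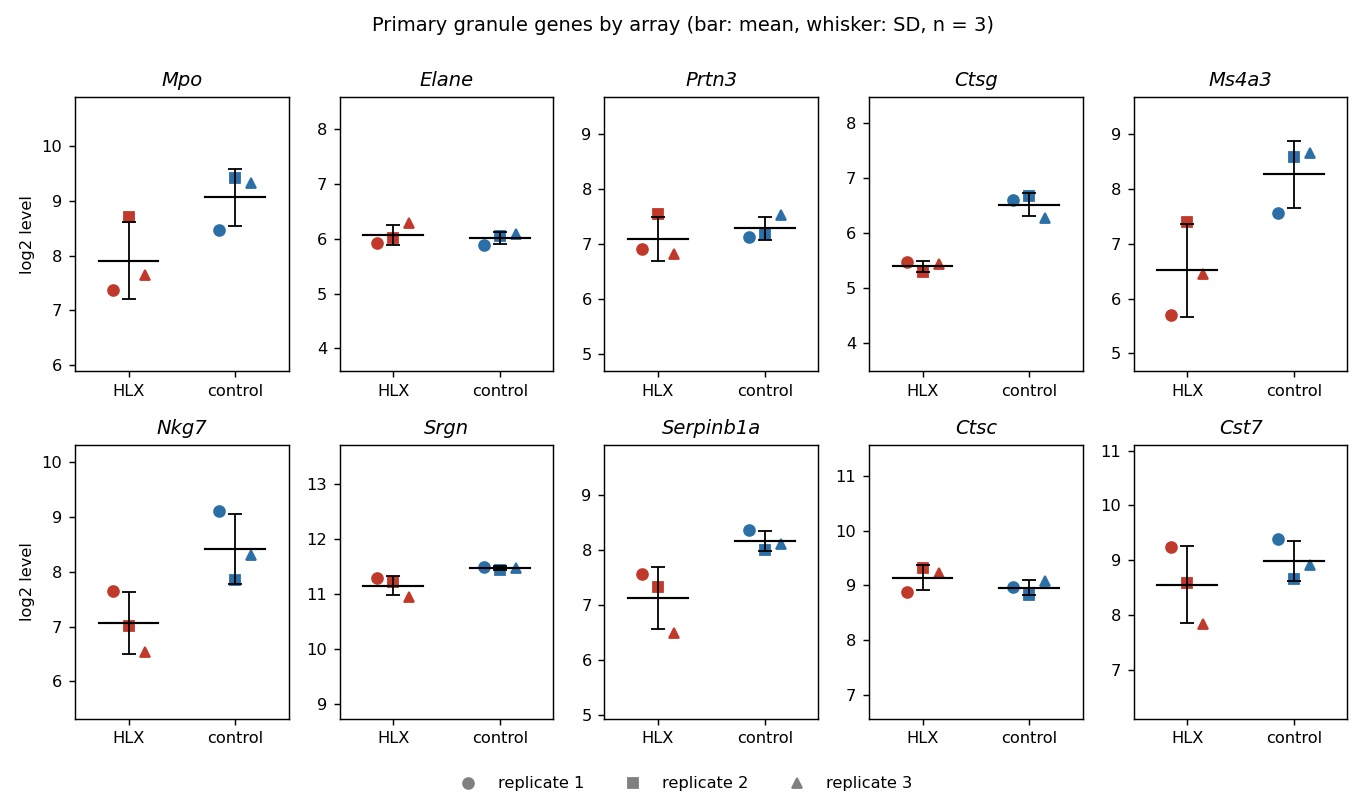
Log2 level (vertical axis, each panel spanning the same number of log2 units) of the 10 genes on each array, HLX vector at the left and control vector at the right; symbols mark replicate numbers, bars the mean and whiskers the SD (n = 3). Ctsg shows the tightest HLX arrays, at 5.28 to 5.47 against 6.28 to 6.68 in controls, while Elane sits near 6 with both vectors.

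The enzymes come first. Mpo encodes myeloperoxidase, the haem enzyme that makes hypochlorous acid and the main protein of the granule. Its log2 level was 7.37, 8.70 and 7.64 on HLX arrays 1, 2 and 3, against 8.46, 9.41 and 9.32 on control arrays 1, 2 and 3. HLX array 2 was above control array 1, so the groups overlapped. The means were 7.90 ± 0.70 with HLX and 9.06 ± 0.52 with control (SD, n = 3 each), a log2 difference of -1.16 ± 0.38 (SE), or 2.23-fold lower.

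Ctsg encodes cathepsin G, a chymotrypsin-like protease of the granule. It was at 5.47, 5.28 and 5.44 on the HLX arrays, against 6.60, 6.68 and 6.28 on the control arrays. The groups were separated by 0.81 log2 units, the widest gap of the 10 genes, and each group was narrow beside that gap. The difference was -1.12 ± 0.13 (SE, n = 3 per group), or 2.18-fold lower with HLX. The signal was dim: all 3 HLX arrays and 1 of the 3 control arrays had Ctsg below the median of all probesets on that array, a range in which RMA compresses differences.

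Elane encodes neutrophil elastase and Prtn3 encodes proteinase 3, serine proteases whose genes are neighbours on chromosome 10. Elane was at 5.92, 6.01 and 6.28 with HLX, against 5.89, 6.06 and 6.09 with control. The groups overlapped almost completely, and all 6 arrays had Elane below their median, so a difference in elastase transcript may not be visible at this signal. The difference was 0.056 ± 0.13 (SE, n = 3 per group), with a 95% interval from limma of -0.24 to 0.35. It was -0.051 without HLX array 3, -0.0064 without control array 1 and 0.13 without HLX array 1, so its sign rests on single arrays.

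Prtn3 was at 6.90, 7.55 and 6.81 with HLX, against 7.13, 7.19 and 7.53 with control. HLX array 2 was the highest of all 6, and the groups overlapped. The difference was -0.20 ± 0.21 (SE, n = 3 per group), with an interval of -0.70 to 0.30. It was -0.43 without HLX array 2, -0.11 without HLX array 1, -0.06 without HLX array 3 and -0.076 without control array 3. Neither Elane nor Prtn3 separated the vectors, unlike Ctsg; the differences between these genes were not tested.

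The promoters of the 4 enzyme genes are shown because their products share a storage compartment and the factors named above are known to act there. Each is the 300 bases from 250 before the start site onward, from RefSeq on GRCm38.p6, read 5′ to 3′ on the gene's strand. They lie at chr11:87793534-87793833 (Mpo, plus strand), chr10:79886062-79886361 (Elane, plus), chr10:79879417-79879716 (Prtn3, plus) and chr14:56102525-56102824 (Ctsg, minus). Capitals mark matches to the motifs searched below.
Mpo: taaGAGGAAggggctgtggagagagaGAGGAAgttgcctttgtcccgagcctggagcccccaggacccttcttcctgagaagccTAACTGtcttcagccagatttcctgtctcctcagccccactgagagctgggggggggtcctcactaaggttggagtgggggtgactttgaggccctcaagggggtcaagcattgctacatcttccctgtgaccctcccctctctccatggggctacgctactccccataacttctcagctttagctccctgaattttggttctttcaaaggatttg
Elane: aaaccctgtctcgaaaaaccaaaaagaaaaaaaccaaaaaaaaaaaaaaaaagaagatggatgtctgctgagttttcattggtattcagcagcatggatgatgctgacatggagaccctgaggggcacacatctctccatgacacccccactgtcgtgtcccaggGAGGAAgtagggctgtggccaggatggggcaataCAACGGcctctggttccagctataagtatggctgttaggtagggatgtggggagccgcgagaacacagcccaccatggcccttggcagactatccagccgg
Prtn3: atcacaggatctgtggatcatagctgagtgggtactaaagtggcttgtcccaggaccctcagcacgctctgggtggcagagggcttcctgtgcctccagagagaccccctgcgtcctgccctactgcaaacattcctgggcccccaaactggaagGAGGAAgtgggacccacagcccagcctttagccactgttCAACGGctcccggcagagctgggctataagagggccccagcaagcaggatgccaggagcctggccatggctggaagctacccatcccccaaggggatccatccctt
Ctsg: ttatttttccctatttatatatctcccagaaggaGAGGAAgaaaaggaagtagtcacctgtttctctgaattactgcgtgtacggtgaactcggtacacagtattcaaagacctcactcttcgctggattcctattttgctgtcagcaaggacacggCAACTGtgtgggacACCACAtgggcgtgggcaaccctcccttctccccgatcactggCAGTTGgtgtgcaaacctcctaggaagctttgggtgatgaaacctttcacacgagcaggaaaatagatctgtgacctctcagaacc

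The motifs, searched on both strands, were GAGGAA for PU.1, TTNNGNAA for C/EBP and TAATTA for the homeobox core. For MYB any of 4 spellings counted: TAACGG or TAACTG or CAACGG or CAACTG. For RUNX either TGTGGT or TGCGGT counted. All 4 enzyme promoters held a PU.1 and a MYB match, with no matches overlapping in these sequences. In Elane the pair began 85 and 51 bases before the start site and in Prtn3 95 and 56 bases before it, with the same letters, GAGGAA and CAACGG, in the same order. Over the 9 members with a promoter in the table, 6 genes held a PU.1 match, 6 a MYB match, 4 a RUNX match, 3 a C/EBP match and 0 a homeobox core. Of all 32851 promoters of this length, 28.3% held the PU.1 letters, 28.3% the MYB letters, 22.4% the RUNX letters, 40.7% the C/EBP letters and 5.29% the homeobox core. The PU.1 letters are the same in all 4 promoters, since only 1 spelling was searched. The MYB letters and the number and spacing of matches in Mpo and Ctsg differ from those in Elane and Prtn3. Spacing also differs between Elane and Prtn3, and Ctsg also holds a RUNX match. A match is a run of letters, not a bound site.

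Ctsc and Srgn act on these enzymes. Ctsc encodes cathepsin C, the dipeptidase that activates the granule serine proteases, and was at 8.88, 9.32 and 9.23 with HLX, against 8.97, 8.82 and 9.09 with control. HLX array 1 fell among the controls and the groups overlapped. The difference was 0.19 ± 0.14 (SE, n = 3 per group), the highest of the 10, with an interval of -0.15 to 0.52. It was 0.32 without HLX array 1, 0.099 without HLX array 2 and 0.11 without control array 2.

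Srgn encodes serglycin, whose glycosaminoglycan chains hold proteases in the granule. It was at 11.29, 11.21 and 10.95 with HLX, against 11.50, 11.43 and 11.48 with control. The groups did not overlap, though the gap between them was 0.14, and the control arrays were within 0.069 of each other. The difference was -0.32 ± 0.11 (SE, n = 3 per group), or 1.25-fold lower with HLX.

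The inhibitors are Serpinb1a and Cst7. Serpinb1a encodes a serpin that inactivates elastase, proteinase 3 and cathepsin G in the cell, and was at 7.56, 7.32 and 6.48 with HLX, against 8.37, 8.01 and 8.12 with control. The groups were separated by 0.45 and HLX array 3 lay well below the other arrays. The difference was -1.05 ± 0.27 (SE, n = 3 per group), or 2.07-fold lower, and -0.73 without HLX array 3.

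Cst7 encodes cystatin F, an inhibitor of cathepsin C in granule-bearing cells. It was at 9.24, 8.58 and 7.84 with HLX, against 9.38, 8.66 and 8.92 with control, so HLX array 1 lay among the controls. The difference was -0.43 ± 0.35 (SE, n = 3 per group), with an interval of -1.25 to 0.38. It was -0.074 without HLX array 3, -0.78 without HLX array 1 and -0.24 without control array 1, so its size depends on which array is left out.

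The membrane proteins were Ms4a3 and Nkg7. Ms4a3 encodes a 4-span membrane protein of granulocyte and monocyte progenitors and is a marker of those cells, not a granule constituent. It was at 5.70, 7.40 and 6.44 with HLX, against 7.56, 8.59 and 8.65 with control. The highest HLX array and the lowest control array were 0.16 apart, and the SDs, 0.85 and 0.62, were wide. The difference was -1.76 ± 0.46 (SE, n = 3 per group), or 3.38-fold lower. On HLX array 1 Ms4a3 was below the array median, where RMA compresses differences. The difference was -1.35 without HLX array 1 and -2.20 without HLX array 2.

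Nkg7 encodes a granule membrane protein best known from natural killer and cytotoxic T cells. It was at 7.65, 7.01 and 6.53 with HLX, against 9.11, 7.85 and 8.31 with control. The groups were 0.20 apart. The difference was -1.36 ± 0.37 (SE, n = 3 per group), or 2.57-fold lower, and -1.02 without control array 1, which held the highest value.

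**Figure D2:**
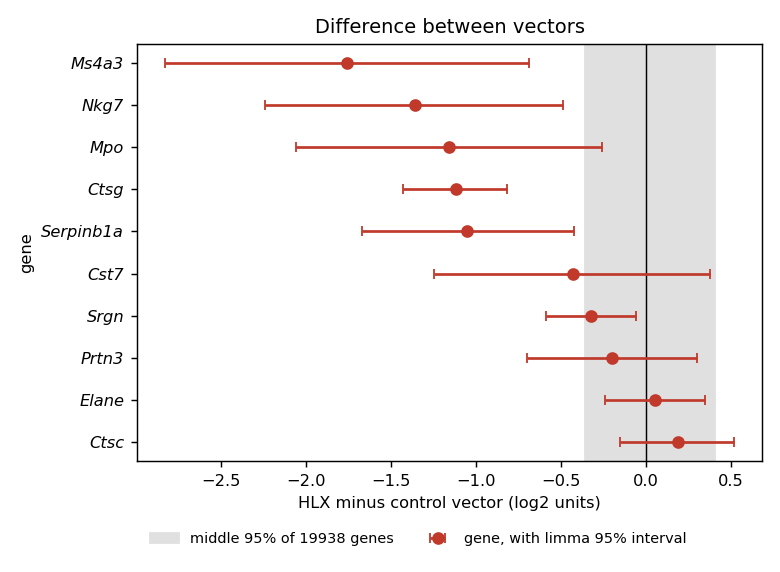
HLX minus control vector in log2 units (horizontal axis) for the 10 genes, ordered by size, with 95% intervals from limma (n = 3 per group); the grey band holds the middle 95% of 19938 genes, from -0.36 to 0.41. Ms4a3, Nkg7, Mpo, Ctsg and Serpinb1a lie at -1.05 or lower, while Srgn, Prtn3, Elane and Ctsc fall within the band.

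The 10 genes did not vary as a single set between arrays of the same vector. Each gene's value was set against its mean within the vector, which removes the contrast between vectors, and the 45 pairs were correlated over the 6 arrays. Such deviations have 4 degrees of freedom, and the sets below were drawn after the values were seen, so these correlations are a description. Their mean was 0.012, and 20 of 45 pairs were above 0, where the mean over all gene pairs was 0.027. For the 8 members above the median level of all probesets, which leave out the dim Elane and Ctsg, the mean was 0.21. With all 10 members it was 0.26 without both arrays numbered 1 and -0.07 without HLX array 3. The median SD between replicates was 0.37 for these genes and 0.16 for all genes, and 7.28% of all genes had an SD at least as large as that of the median member.

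Mpo, Ms4a3 and Prtn3 varied together, with correlations of deviations of 0.78 to 0.98. Mpo and Ms4a3 gave 0.98: both were lowest on array 1 of each vector and highest among HLX arrays on array 2. Nkg7, Srgn, Serpinb1a and Cst7 made a second set, with correlations of 0.73 to 0.98 in their 6 pairs. In all 4 of them HLX array 1 was the highest HLX array and HLX array 3 the lowest, and control array 1 was the highest control and control array 2 the lowest. Array 1 of each vector was thus low for Mpo and Ms4a3 and high for the set of Nkg7. Between the sets the 12 correlations ran from -0.67 to 0.37.

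Elane ran against the second set at -0.96 to -0.86, on a range of 0.37 with HLX and 0.21 with control. Ctsg was at -0.76 to -0.47 with the first set and -0.15 to 0.049 with the second, on narrow ranges of 0.18 and 0.40. Ctsc was at 0.49 to 0.63 with the first set and -0.47 to -0.30 with the second. All these values share the same 6 arrays and their normalization.

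**Figure D3:**
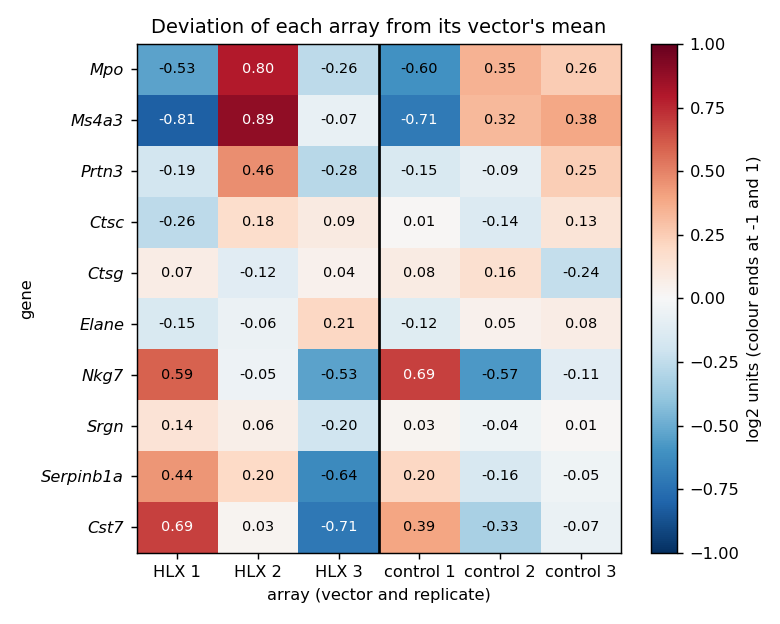
Deviation of each array from its vector's mean, in log2 units (colour and printed value), for the 10 genes (rows) on 3 HLX and 3 control arrays (columns). Mpo and Ms4a3 are low on array 1 of each vector, where Nkg7 and Cst7 are high; Srgn and Serpinb1a are also above their means there and below them on HLX array 3.

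Hlx itself differed between the HLX arrays, being highest on array 1 and lowest on array 2. Mpo, Ms4a3 and Ctsc had their lowest HLX values on array 1 and their highest on array 2, in the opposite order to Hlx. Ctsg, at 5.47, 5.28 and 5.44 on HLX arrays 1, 2 and 3, had the same order as Hlx. Nkg7, Srgn, Serpinb1a and Cst7 were also highest on HLX array 1, but lowest on array 3. Elane and Prtn3 followed neither order. In controls, where Hlx came from the cells alone, Hlx was lowest on array 1, as were Mpo, Elane, Prtn3 and Ms4a3. Nkg7, Srgn, Serpinb1a and Cst7 were highest on that array, and Ctsg and Ctsc lay between. With 3 arrays per group, a relation to the level of Hlx was not tested.

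Genes of other lineages also set single arrays apart. Cpa3, the mast cell carboxypeptidase, was at 4.96, 4.77 and 4.85 with HLX, against 7.47 on control array 1 and 4.99 and 5.10 on control arrays 2 and 3. Mcpt8, a basophil protease, was at 5.16, 4.85 and 5.31 with HLX, against 6.60, 5.86 and 5.01 with control. Gzmb, the cytotoxic protease granzyme B, chosen for mention after its values were seen, was at 5.40, 5.60 and 5.47 with HLX, against 7.66, 5.33 and 5.42 with control. Control array 1, highest for all of these, is also the array with the highest Nkg7, Srgn, Serpinb1a and Cst7 among controls. Gzmb does not stand for its list: of 20 cytotoxic granule genes 5 were highest on control array 1 and 6 on HLX array 3. Only 2 of the 20 varied by over 1 log2 unit. The summed signal of the 20, as log2, was 9.81 to 10.02 with HLX and 9.85 to 10.16 with control.

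Over the whole list of mast cell, basophil and eosinophil granule genes, 4 of 17 measured genes were highest on control array 1. The count was also 4 on HLX array 1, HLX array 3 and control array 2, and 2 of 17 varied by over 1 log2 unit. The summed signal of that list, as log2, was 9.25 to 9.44 with HLX and 9.36 to 9.75 with control, and Ms4a2, the beta chain of the IgE receptor, was at 4.46 to 4.60 and 4.35 to 4.48. Without control array 1 the differences between vectors were -1.02 for Nkg7, -0.31 for Srgn, -0.94 for Serpinb1a and -0.24 for Cst7. The part of mast cells or basophils in the values was not tested.

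Csf1r, the receptor of macrophage growth factor, was at 6.49, 7.80 and 8.92 with HLX, against 6.28, 6.48 and 6.37 with control. HLX array 3, the highest for Csf1r, was the lowest for Nkg7, Srgn, Serpinb1a and Cst7. Of 8 monocyte and macrophage markers 5 were highest on that array, and their summed signal, as log2, was 10.67 to 11.10 with HLX and 10.15 to 10.45 with control. Its part in the granule gene values was not tested. Clec12a, an inhibitory lectin receptor of myeloid progenitors named after its values were seen, was at 5.42, 6.56 and 6.02 with HLX, against 5.61, 7.77 and 8.45 with control, low on array 1 of each vector as Mpo and Ms4a3 were.

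**Figure D4:**
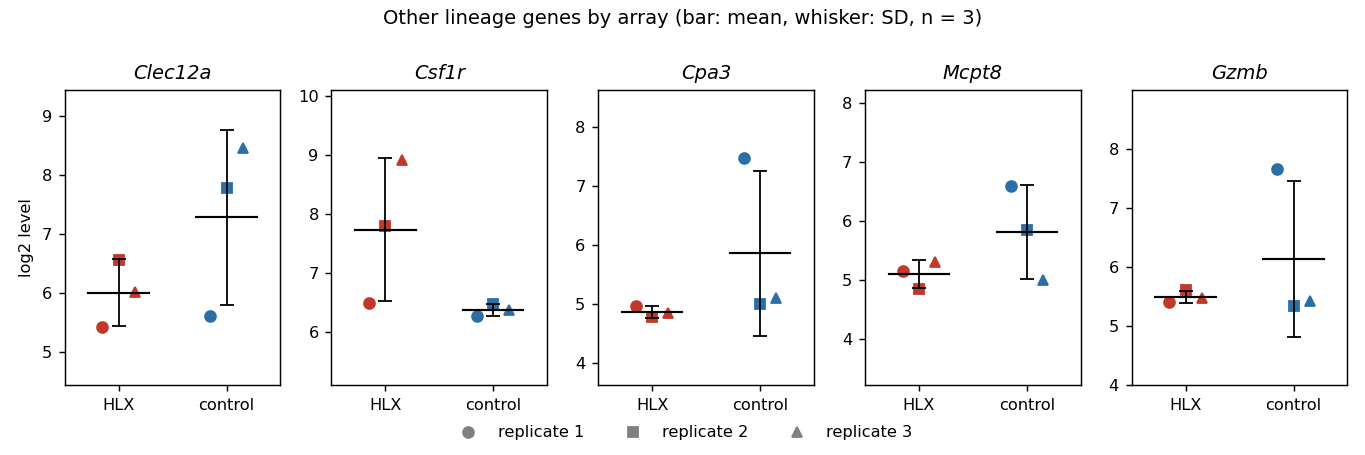
Log2 level of Clec12a, Csf1r, Cpa3, Mcpt8 and Gzmb on each array, HLX vector at the left and control vector at the right; symbols mark replicate numbers, bars the mean and whiskers the SD (n = 3). Control array 1 stands at 7.47 for Cpa3 and 7.66 for Gzmb, above the other 5 arrays, and HLX array 3 at 8.92 for Csf1r.

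The wider programme around the granule was read from 16 lists with 230 measured genes of 255. In the fit across all genes limma called 0 of them at an adjusted p under 0.05, and 0% of all 19938 genes. Hlx itself, higher by 2.95 ± 0.27 with the HLX vector, was not called in that fit (adjusted p from limma 0.0782). A gene that is not called here is therefore not shown to be unchanged. At an unadjusted p under 0.05 there were 9 lower and 14 higher list genes, where 2.36% of all genes were lower and 2.44% higher. Of the 230 genes 114 were lower and 116 higher.

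Other primary granule and lysosomal genes were not lower as a group: 6 of 17 were lower and 11 higher, with a median log2 difference of 0.081. Lyz2, the lysozyme of myeloid cells, was at 7.63, 8.00 and 8.04 with HLX, against 7.12, 7.14 and 7.30 with control. All HLX arrays were above all controls, the opposite of Ctsg, with a difference of 0.70 ± 0.13 (SE, n = 3 per group; adjusted p from limma 0.824). Cd68, a lysosomal membrane protein of macrophages, differed by 0.51 ± 0.15 (adjusted p from limma 0.932) and Arsa, the lysosomal arylsulfatase, by -0.39 ± 0.15 (adjusted p from limma 1). Prss57, another neutrophil serine protease, was at 5.80 to 5.90 with HLX and 5.72 to 6.38 with control.

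Genes of the later, specific and gelatinase granules divided into 9 lower and 12 higher of 21, with a median of 0.017. The integrin chains Itgam (0.89 ± 0.22) and Itgb2 (0.71 ± 0.25) and the oxidase subunit Cyba (0.54 ± 0.21) had the smallest p, with adjusted p from limma of 0.901, 0.977 and 1. In these 3 genes of the 21 all HLX arrays lay above all controls, which 4.34% of all genes did. In 2 of the 21 all HLX arrays lay below, which 4.85% of all genes did. Of those 2, lactoferrin, Ltf, was at 4.98 to 5.07 with HLX and 5.07 to 5.20 with control. Cathelicidin, Camp, was at 5.65 to 5.91 and 5.96 to 6.03. Both were dim, at percentiles 16.4 and 33.1 of all genes by mean level. The remaining genes of the list overlapped between vectors, among them Lcn2 (0.12), Ngp (0.015), S100a8 (0.071), S100a9 (0.17) and Mmp9 (0.056).

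Granulocyte and monocyte progenitor genes were 11 lower and 12 higher of 23, with a median of 0.0012. Cd33, a sialic acid binding receptor, differed by -0.81 ± 0.20 and Fcer1g, the common signalling chain of Fc receptors, by -0.65 ± 0.18. Both had all HLX arrays below all controls, with adjusted p from limma of 0.901 and 0.914. Alas1, the first enzyme of haem synthesis and a supplier of the myeloperoxidase cofactor, differed by 0.39 ± 0.096 (adjusted p from limma 0.901). In the haem list as a whole 6 of 11 were lower and 5 higher, with Ppox at 0.60 ± 0.15 and Urod at -0.20 ± 0.089 (adjusted p from limma 0.901 and 1). The other haem peroxidases, Lpo and Epx, which lie near Mpo on the same side in the gene order, differed by -0.042 ± 0.11 and 0.14 ± 0.11.

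Among 14 transcription factors known to act on these genes 4 were lower and 10 higher. Myb was at 9.58, 9.66 and 9.60 with HLX, against 10.12, 10.13 and 10.22 with control, with groups that did not overlap. It differed by -0.54 ± 0.088 (adjusted p from limma 0.662). Spi1, which encodes PU.1, differed by 0.70 ± 0.28 and Cebpb by 0.36 ± 0.12 (adjusted p from limma 1 and 0.963), while Cebpa, Cebpe and Gfi1 were within 0.041 of 0 in mean difference.

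In the sorting and exocytosis list 12 were lower and 12 higher of 24. Rab38, a small GTPase of lysosome-related organelles and the gene next to Ctsc on chromosome 7, was at 8.15, 8.39 and 8.08 with HLX, against 9.08, 9.19 and 8.84 with control. Its difference was -0.83 ± 0.13, with the smallest adjusted p of all list genes (0.647 from limma), while Ctsc itself was at 0.19. Hps4 and Hps3, parts of complexes that build such organelles, differed by 0.45 ± 0.13 and 0.39 ± 0.12 (adjusted p from limma 0.932 each). Among 19 enzymes of glycosaminoglycan synthesis, 9 lower and 10 higher, Ndst2, which sulfates heparin chains, differed by -0.63 ± 0.19 (adjusted p from limma 0.932), with all HLX arrays below the controls.

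Relatives of the members divided evenly or nearly so. Of 16 other inhibitors 8 were lower and 8 higher, and Serpinb6b, near Serpinb1a in the gene order, differed by -0.73 ± 0.43 (adjusted p from limma 1). Of 12 other cathepsins 5 were lower and 7 higher, between -0.32 for Ctso and 0.28 for Ctsz. Of 16 other MS4A genes 9 were lower and 7 higher, and all but Ms4a6c (-1.21 ± 0.63, adjusted p from limma 1) lay between -0.24 (Ms4a7) and 0.15 (Ms4a6b). Of 20 cytotoxic granule genes 10 were lower and 10 higher, with Gzmk at -0.20 ± 0.093 (adjusted p from limma 1). Of the marker lists, 10 of 17 mast cell, basophil and eosinophil genes, 1 of 8 monocyte genes, 3 of 6 erythroid and megakaryocyte genes, 8 of 10 gate genes and 7 of 7 B cell genes were lower with HLX. The B cell list summed to 8.92 to 9.41 with HLX and 9.30 to 9.80 with control, as log2, and its part in the granule gene values was not tested.

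The genes that neighbour the 10 members, up to 3 on each side in the RefSeq order, gave 49 measured genes that are not members. Of these 30 were lower and 19 higher, with a median of -0.035, where 52.5% of all genes were below 0. At an adjusted p under 0.05 limma called 0 of the 49. At an unadjusted p under 0.05 there were 2 lower and 1 higher, beside 2.36% and 2.44% of all genes. All HLX arrays lay below all controls in 5 of the 49 and above them in 2, beside 4.85% and 4.34% of all genes. Cathepsin G lies in a cluster of protease genes: its neighbours Mcpt8 (-0.72 ± 0.36), Mcpt4 (-0.026 ± 0.12), Gzme (0.0052 ± 0.20) and Gzmd (0.10 ± 0.13) had adjusted p from limma of 1 each. Beside Ms4a3, Ms4a2 differed by 0.11 ± 0.092 and Oosp2 by -0.19 ± 0.10.

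The 6 genes most like the mean of the members over the 6 arrays, of 1989 genes above the median level with an SD of at least 0.3, were Sipa1l1, Cd93, Mllt3, Hmces, Clnk and Scin, with Pearson correlations of 0.97 to 0.99. The contrast between vectors enters these correlations. Sipa1l1, a regulator of RAP GTPases, was at 7.69, 7.76 and 7.49 with HLX, against 8.26, 8.24 and 8.30 with control. Cd93, a surface glycoprotein of early progenitors, was at 8.87, 9.06 and 8.68 with HLX, against 9.47, 9.58 and 9.47. Both had all HLX arrays below all controls. With the group means removed the 6 most alike were Zfp141, Zfp292, Ufsp1, Cog5, Stap1 and Arhgap18 (0.986 to 0.998). None of these was among the first 6. The members' mean deviation was largest on HLX arrays 2 and 3, at 0.24 and -0.24, and many members did not follow it. A member's correlation with the mean of the other 9 ran from -0.61 for Elane to 0.84 for Prtn3. It was 0.069 for Ms4a3 and -0.068 for Nkg7. Likeness to this mean is thus not likeness to each member. Stap1, a signalling adaptor, was highest on HLX array 2 and lowest on HLX array 3, at 9.85 and 8.72, with controls at 9.94 to 10.16.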

How the data were processed

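RNA of 3 HLX-vector and 3 control-vector samples was measured on Affymetrix arrays. The deposited values are log2 levels per probeset, which the authors obtained by RMA in Affymetrix Power Tools (source: the submitters' notes on processing). Their range shows the log2 scale. RMA compresses weak signals. The build behind the probe annotation was not stated. The number of arrays limits the precision.

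Of 35556 probesets, 21789 had 1 gene symbol in the platform annotation, 1621 had several and 12146 were unnamed; 21698 identifiers matched RefSeq (GRCm38.p6), used for names, gene order and promoters. The brightest probeset per gene by mean over all arrays left 19938 genes; all 10 members have 1 probeset each. No dim probesets were removed.

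Every gene was fitted with limma 3.58.1 (lmFit, eBayes, 4 residual degrees of freedom, R 4.3.3), with 2-sided p adjusted across the whole table by Benjamini-Hochberg, threshold 0.05. SE and intervals are limma's moderated ones. The code was tested on simulated data. Genes named are the members, up to 3 of smallest p per list, the 6 most alike, genome neighbours and any MS4A gene or cathepsin. Outside that rule, Kit, Cd34, Prss57, Ltf, Camp, Lcn2, Ngp, S100a8, S100a9, Mmp9, Cebpa, Cebpe, Gfi1, Gzmb and Clec12a were named after their values were seen. The members, 16 related gene lists and naming rule were chosen with earlier results of these data known. Alternatives covered filters, normalizations, variance priors, array weights, probeset choice, a replicate block and left-out arrays.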

Additional observations from a re-analysis of the deposited data

How the results depend on the processing

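Each member's log2 difference was recomputed under 13 alternatives, 130 values in all, and 0 moved by more than its SD between replicates. Leaving out 1 of 3 arrays cannot move a difference that far. The replicate block and the mean over probesets leave the members' differences unchanged by construction. Nothing is therefore read from that count. Within it, Cst7 ran from -0.78 to -0.074 and Prtn3 from -0.43 to -0.06. The sign held throughout except for Elane, which was below 0 in 3 of 13, from -0.051 to 0.13. The median over the members was -0.83 to -0.47 with 1 array left out (-0.47 without HLX replicate 3), and -0.85 to -0.57 otherwise. Members below 0 numbered 7 to 9; 7 is of the 8 members among brighter genes. The mean correlation of deviations ranged from -0.07 to 0.26. Counts of adjusted calls by limma over the whole table were 0 under every alternative run except a trended robust prior, which gave 1, Hlx (adjusted p = 0.0377). The unadjusted p was under 0.05 for 958 genes, for 805 to 1269 with 1 array left out and for 605 among the 11042 genes above the median level, where fewer were tested. Median centring turned the split of 471 lower and 487 higher to 376 and 612. No list gene was called under any of the alternatives run.

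Deviations of same-numbered arrays correlated at 0.2, 0.00854 and 0.143, and those of differently numbered arrays at -0.225 to 0.105. The labels do not say what the numbers stand for, and the main fit took no pairs. Whether same-numbered arrays share an effect was not tested. With the replicate block 1205 genes stood at an unadjusted p under 0.05, 0 were called, the median difference was -0.74 and the mean correlation of deviations 0.19. Signal over background limits Elane and Ctsg, which lay near or below the array medians.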
